A study of Mus musculus with 6 samples.

Results

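The 9 genes Shh, Ihh, Dhh, Ptch1, Smo, Gli1, Gli2, Gli3 and Hhip form the core of the mouse Hedgehog pathway. They were taken by name from the 24063 gene symbols of the deposited counts, by a rule that uses no measured value. The set itself was chosen with earlier results of these data known. Each of the 9 was represented by a single RefSeq transcript. RNA-seq was performed on 3 penile tumors of SA mice (PB-Cre+ Smad4L/L ApcL/L) and on tissue labelled as normal penile epithelium in 3 WT samples from wild type C57BL/6 mice, and all mice were 5 months old. In SA mice the PB-Cre4 transgene, whose promoter responds to androgen, deletes Smad4 and Apc in androgen-responsive epithelium, and the tumors arose without carcinogen treatment. The same promoter also drives Cre in the prostate. Mice with Cre alone or with 1 deleted gene are not analysed here. The methods count biological samples, 3 in each group, and the labels do not say whether each WT sample was a single mouse, so that p-values measure the spread between these samples.

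Hedgehog ligands are secreted, lipid-modified proteins, and they bind the membrane receptor Ptch1. Without ligand, Ptch1 holds back Smo, a membrane protein of the primary cilium. With ligand, Smo is released and the Gli transcription factors switch from repressors to activators. Gli1, Ptch1 and Hhip are themselves target genes in most tissues, and Ptch1 and Hhip encode proteins that bind and restrain the ligand. In the embryo, Shh made by the urethral epithelium drives outgrowth of the genital tubercle, from which the penis forms, and Shh made by the hair placode drives growth of the follicle.

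Of the 9 genes, 5 rose in SA tumors, 1 fell, 2 did not pass the test and 1, Ihh, had too few counts to be tested. Shh rose by far the most, at 304-fold. Hhip, Gli1 and Ptch1 rose 9.48-fold, 8.90-fold and 7.13-fold, and Gli2 rose 1.78-fold. Dhh fell, and Smo and Gli3 stayed within 1.21-fold of the WT level. A gene was said to rise or fall when its adjusted p was under 0.01, by edgeR's quasi-likelihood test with Benjamini-Hochberg adjustment over 16336 genes. Of all genes tested, 37.6% were called by this rule, 20.1% higher and 17.5% lower, which were 3283 and 2865 genes. With library totals as the only scaling the split was 5248 and 1806, and the median log2 fold change (log2FC, SA over WT) of all genes moved from 0.03 to 0.31. Past both thresholds of the study, the same adjusted p and a fold change of at least 4, were 4 of the 9 genes, Shh, Ptch1, Gli1 and Hhip, all of them higher. The share of all tested genes past both thresholds was 9.41% upward and 3.59% downward.

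The samples held between 23828283 and 110509147 counts, and the third SA library had 4.42 times the median count of the other 5. The depth limits only the lowest values, since a count of 3 equals between 0.0244 and 0.137 CPM, counts scaled to library size. Smad4 was at 36.6, 36.1 and 46.1 CPM in the SA tumors and at 61.2, 69.7 and 72.5 CPM in the WT penises. Apc was at 253, 194 and 197 CPM in the SA tumors against 62.5, 85.3 and 91.1 CPM, and it was higher in every tumor (log2FC 1.43, adjusted p = 0.000185), while Smad4 was lower (log2FC -0.77, adjusted p = 0.00114). These counts cover whole transcripts and do not single out the deleted part of either gene. The epithelial keratin Krt14 was high in every sample, at 5072 to 6656 CPM in SA tumors and 6532 to 9692 CPM in WT penises. The WT tissue also held transcripts of smooth muscle, whose 8 markers summed to between 1684 and 2222 CPM, against 89.8 to 200.3 CPM in SA tumors. In these bulk samples, fewer cells of a type and less RNA per cell cannot be told apart.

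Of the 5 genes that rose, Ptch1, Hhip and Gli2 have a window of 250 bases before an annotated start in the RefSeq promoters used here (GRCm38.p6). The windows of Ptch1, the receptor, and Gli2, the activator, are shown because both genes rose and the Gli factors act by binding DNA. They lie on the minus strand at chr13:63565736-63565985 for Ptch1 and chr1:119053620-119053869 for Gli2, and are written 5′ to 3′ on the strand of the gene. GENCODE M21 places no exon in either window. Both lie within the RefSeq span of their gene given below, which reaches farther upstream. The window of Hhip runs into the span of its gene and is not printed. Capitals mark CCACCC or its reverse complement GGGTGG, the inner letters of the Gli consensus.
Ptch1: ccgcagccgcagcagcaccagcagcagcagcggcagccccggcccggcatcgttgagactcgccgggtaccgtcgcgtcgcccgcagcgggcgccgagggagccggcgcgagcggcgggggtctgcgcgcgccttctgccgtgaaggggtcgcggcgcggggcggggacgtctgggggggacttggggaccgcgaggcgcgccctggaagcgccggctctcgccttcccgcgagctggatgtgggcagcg
Gli2: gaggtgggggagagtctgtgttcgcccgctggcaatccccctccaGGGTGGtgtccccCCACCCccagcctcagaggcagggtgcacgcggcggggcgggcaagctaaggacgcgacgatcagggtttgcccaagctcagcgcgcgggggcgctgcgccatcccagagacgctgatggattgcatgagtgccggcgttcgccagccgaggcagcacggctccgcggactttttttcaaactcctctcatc

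The whole Gli consensus, GACCACCCA or TGGGTGGTC on the other strand, was in none of the windows of the 7 members that have one. It was in 74 of all 32851 windows of that length (0.225%). The shorter CCACCC, which the consensus contains and which other zinc finger factors also bind, had 1 match in the window of Hhip, 2 in that of Gli2 and none in that of Ptch1. Of the 7 windows 6 held it, among them those of Dhh, which fell, and of Smo and Gli3, which were not called. Of all windows 28.1% had a match on either strand, a share not matched for base content. The windows of the members were 59.6% to 78.4% G and C. A match is only a match of letters, and these windows say nothing of sites farther away.

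Shh (NM_009170, chromosome 5, 28456840 to 28467101) encodes Sonic hedgehog, the ligand of most epithelia. The WT penises held 8, 9 and 7 Shh counts, and the SA tumors held 3133, 2734 and 11362. At 116, 90.5 and 92.3 CPM in SA tumors against 0.362, 0.300 and 0.319 CPM in WT penises, the groups lay far apart and were tight within themselves. The log2FC was 8.25 ± 0.192 (SE, adjusted p = 6.09e-07), which ranked 106 among the increases of 16336 genes. Fits that each omitted a sample gave 8.12 to 8.31. The antisense transcript 9530036O11Rik shares exonic sequence with Shh on the opposite strand. It had 1 count in each WT sample and rose to 2.42 ± 0.0679 CPM (SD, n = 3) in SA tumors, with an adjusted p of 1.15e-05 in the same test. The libraries were stranded, but the setting of the counting was not given, so that reads over the shared stretch may not be separated between the pair.

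Dhh (NM_007857, chromosome 15, 98881615 to 98898562) encodes Desert hedgehog, which Schwann cells of peripheral nerves make. It was at 2.22, 2.07 and 2.46 CPM in WT penises and at 1.00, 0.695 and 0.950 CPM in SA tumors. Every tumor was below every WT sample, as in 30.7% of all tested genes. The log2FC of Dhh was -1.34 ± 0.271 (SE, adjusted p = 0.00343). The call is weak, since of 6 fits with a sample omitted only 2 kept it, those without SA tumor 1 and without SA tumor 3. In the other 4, without SA tumor 2 or any 1 of the WT samples, the adjusted p was 0.0119 to 0.0156. Dhh shares exonic sequence with Rhebl1 on the same strand, which was at 5.68 ± 1.11 CPM in SA tumors and 5.94 ± 0.757 CPM in WT tissue (SD, n = 3 each).

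Markers of Schwann cells were lower in the same samples. Of 10 markers tested, 7 fell and 1 rose, against 17.5% and 20.1% of all genes. Their median log2FC was -2.60 against 0.03 over all genes. Summed, they were at 102 to 127 CPM in SA tumors and 374 to 427 CPM in WT penises. Sox10 is the transcription factor that defines this lineage. It fell from 6.13 ± 0.367 CPM in WT penises to 0.252 ± 0.164 CPM in SA tumors (SD, n = 3 each). Cdh19 and Pmp22 fell as well. The marker that rose, Ngfr, is also made by other cells, and it is named here after its value was seen. Summed markers of fibroblasts, smooth muscle, endothelium and epithelium were also lower in every SA tumor than in every WT penis. The part of nerve or of any other tissue in the change of Dhh was not tested.

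Ihh (NM_010544, chromosome 1, 74945315 to 74951672) encodes Indian hedgehog, the ligand of growing cartilage. Its reads were few, with counts of 7, 15 and 27 in SA and of 1, 4 and 3 in WT. These were 0.260, 0.497 and 0.219 CPM against 0.0452, 0.134 and 0.137 CPM, and the tumors were all higher, but such low counts kept Ihh out of the test. With all genes included its log2FC was 1.50 ± 0.648 (SE, adjusted p = 0.0849 by edgeR).

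The makeup of the ligand pool can be compared within a sample by TPM, which the authors scaled to the length of each transcript. Dhh held 83.9% to 85.9% of the TPM of the 3 ligands in the WT penises, and Shh 9.84% to 12.4%. In the SA tumors Shh held 98.6% to 98.8%, and Dhh 0.853% to 1.14%. The summed level of the ligands was 1.39 to 1.75 TPM in WT penises and 58.9 to 79.0 TPM in SA tumors. With 3 samples in each group, the two-sided exact permutation test of the Shh share gave p = 0.10, the smallest it can give.

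**Figure D1:**
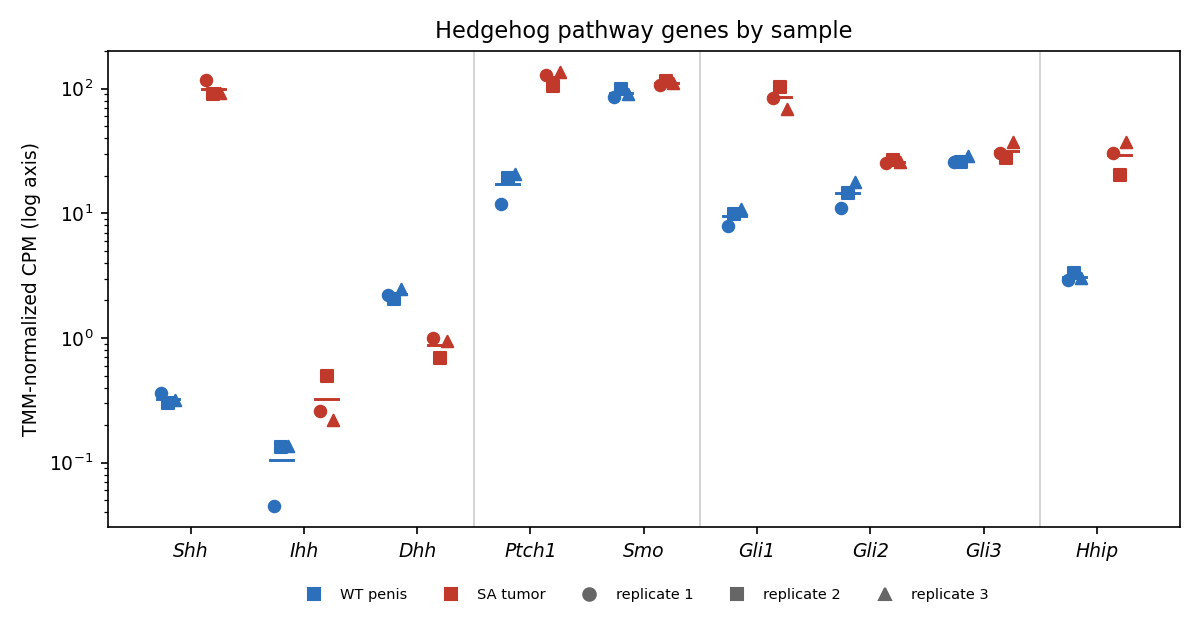
TMM-normalized CPM (log axis) of the 9 Hedgehog pathway genes in each of the 3 WT penises (blue) and 3 SA tumors (red), with marker shapes for replicates and lines for group means. Shh moves from 0.327 to 99.7 CPM on average, while Smo and Gli3 lie at nearly the same height in both groups.

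Ptch1 (NM_008957, chromosome 13, 63508328 to 63573460), the receptor, was at 129, 105 and 135 CPM in SA tumors and at 11.8, 19.4 and 20.5 CPM in WT penises. The lowest tumor was more than 5 times the highest WT sample. Its log2FC was 2.83 ± 0.213 (SE, adjusted p = 1.89e-05). Smo (NM_176996, chromosome 6, 29735497 to 29761366), which carries the signal inward, was at 107, 116 and 111 CPM in SA tumors and 85.8, 99.2 and 91.2 CPM in WT penises. All tumors were above all WT samples, yet the difference was small, with a log2FC of 0.27 ± 0.0936 (SE, adjusted p = 0.0375), and it did not pass the threshold. Such a separation alone is common here, since 32.7% of all tested genes had the 3 SA values above the 3 WT values. The ratio of Ptch1 to Smo in TPM was 0.127 to 0.208 in WT penises and 0.842 to 1.13 in SA tumors (two-sided exact permutation p = 0.10, the smallest possible).

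Gli1 (NM_010296, chromosome 10, 127329882 to 127341579) encodes the Gli factor that acts only as an activator, and its transcript is a common readout of the pathway. It was at 84.6, 103 and 69.2 CPM in SA tumors and at 7.91, 9.95 and 10.9 CPM in WT penises. Every tumor was above every WT sample, as in 32.7% of all tested genes. The log2FC of Gli1 was 3.15 ± 0.184 (SE, adjusted p = 5.27e-06). Gli1 shares exonic sequence with Arhgap9 on the opposite strand. Arhgap9 was at 6.44 ± 2.31 CPM in SA tumors and 3.19 ± 0.798 CPM in WT penises (SD, n = 3 each). It did not pass edgeR's test (adjusted p = 0.0240).

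Gli2 (NM_001081125, chromosome 1, 118834061 to 119054405) encodes the main activator that responds first to the ligand. It rose from 11.0, 14.7 and 17.9 CPM in WT penises to 25.2, 26.7 and 25.8 CPM in SA tumors. The tumors were nearly equal, and the spread lay among the WT samples. Its log2FC was 0.83 ± 0.172 (SE, adjusted p = 0.00384). The call was lost without SA tumor 2 (adjusted p = 0.0152) and without WT penis 2 (adjusted p = 0.0166). Gli3 (NM_008130, chromosome 13, 15463723 to 15730026), the main repressor of the pathway, was at 30.6, 28.0 and 37.1 CPM in SA tumors and at 25.7, 25.6 and 28.8 CPM in WT penises. The groups overlapped, and the log2FC of 0.26 ± 0.132 (SE, adjusted p = 0.133) did not pass the test.

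The balance among the Gli factors differed between the groups. Gli1 held 31.5% to 34.2% of their TPM in WT penises and 69.6% to 79.3% in SA tumors. Gli3 held the largest share in each WT sample, 37.8% to 44.5%, and 9.41% to 16.2% in SA tumors. The ratio of Gli1 to Gli2 in TPM was 1.22 ± 0.101 in WT penises and 6.04 ± 1.07 in SA tumors (SD, n = 3 each). The exact permutation p was 0.10 for the share of Gli1 and for this ratio, two-sided and again the smallest that 3 against 3 allow.

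**Figure D2:**
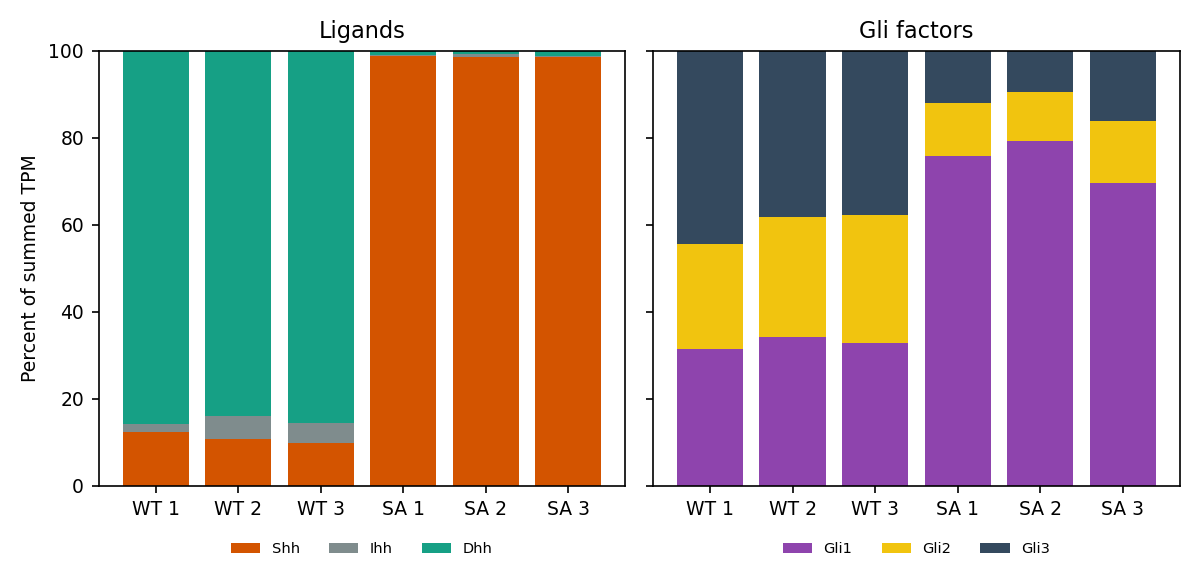
Share of each gene in the summed TPM of the 3 ligands (left) and the 3 Gli factors (right), in percent, with a bar for each WT and SA sample. Dhh fills 83.9% to 85.9% of the WT ligand bars and Shh at least 98.6% of the SA bars, and Gli1 grows from at most 34.2% to at least 69.6% of the Gli bars.

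Hhip (NM_020259, chromosome 8, 79965850 to 80058060) encodes a decoy that binds all 3 ligands. It was at 30.4, 20.2 and 37.5 CPM in SA tumors and at 2.94, 3.34 and 3.01 CPM in WT penises. The WT values were nearly equal, and the tumors differed by 1.86-fold among themselves, the widest spread of the members that rose. The log2FC was 3.25 ± 0.241 (SE, adjusted p = 1.67e-05). The ratio of Hhip to Ptch1 in TPM was 0.111 ± 0.0204 in SA tumors and 0.0897 ± 0.0253 in WT tissue (SD, n = 3 each; two-sided exact permutation p = 0.30), and the groups overlapped.

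The order of the members per transcript length also differed between the groups. In WT penises Smo led at 31.8 ± 3.76 TPM, followed by Ptch1 at 5.56 ± 1.80, Gli3 at 4.36 ± 0.526, Gli1 at 3.62 ± 0.778 and Gli2 at 3.00 ± 0.874 TPM (SD, n = 3). Of these, Ptch1, Gli3 and Gli1 each overlapped with the next in the order. Dhh, Hhip, Shh and Ihh followed, at 1.31, 0.468, 0.168 and 0.0602 TPM on average, without overlap. In SA tumors Shh led at 66.4 ± 10.4 TPM, followed by Ptch1 at 50.9 ± 8.02, Smo at 49.6 ± 1.20 and Gli1 at 41.2 ± 6.73 TPM (SD, n = 3). The lowest Shh value was above the highest of any other member. Ptch1 overlapped with Smo and with Gli1, and the lowest Smo value was just above the highest of Gli1, at 48.3 and 47.9 TPM. Gli2, Gli3 and Hhip lay between 3.80 and 8.03 TPM and overlapped, and Dhh and Ihh were at or below 0.758 TPM.

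Beyond the 9 members, co-receptors of the ligand were lower in SA tumors. The co-receptors Boc, Cdon and Gas1, which help Ptch1 to bind the ligand and which the pathway is known to repress in several embryonic tissues, all fell. Boc was at 84.8, 118 and 123 CPM in WT penises and at 31.4, 33.1 and 37.0 CPM in SA tumors, a log2FC of -1.68 ± 0.153 (SE, adjusted p = 4.81e-05). Cdon fell by 1.22 and Gas1 by 0.90 on the log2 scale, with adjusted p of 0.000969 and 0.00181 in edgeR's test. For each of the 3, every tumor was below every WT sample, a separation that 30.7% of all tested genes showed, and 17.5% were called lower. Lrp2, which encodes another ligand-binding receptor, had too few counts to be tested.

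Genes that process, release or hold the ligand rose in part. Of 6 tested, 4 rose and 1 fell, against 20.1% and 17.5% of all genes. Their median log2FC was 1.56 against 0.03 over all genes. Without SA tumor 2 or any 1 of the WT samples, 3 rose. Scube1 and Scube3 encode secreted proteins that take up the lipid-modified ligand. Scube1 was at 245, 197 and 224 CPM in SA tumors and at 7.69, 7.74 and 4.69 CPM in WT penises, a log2FC of 5.05 ± 0.210 (SE, adjusted p = 1.96e-06). Scube3 was at 28.6, 26.0 and 34.6 CPM in SA tumors and rose from 1.49, 1.80 and 2.28 CPM in WT penises, with an adjusted p of 2.80e-06. Their relative Scube2 fell, from 1.76 ± 0.338 to 0.204 ± 0.120 CPM (SD, n = 3 each). Gpc3, a glypican that can hold the ligand at the cell surface, rose 3.94-fold, and Disp1, the transporter that releases the ligand, rose 2.19-fold. Hhat is the enzyme that attaches palmitate to the ligand. It was at 3.81 ± 0.716 CPM in SA tumors and 3.37 ± 0.239 CPM in WT penises (SD, n = 3 each). Its change did not pass the test.

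**Figure D3:**
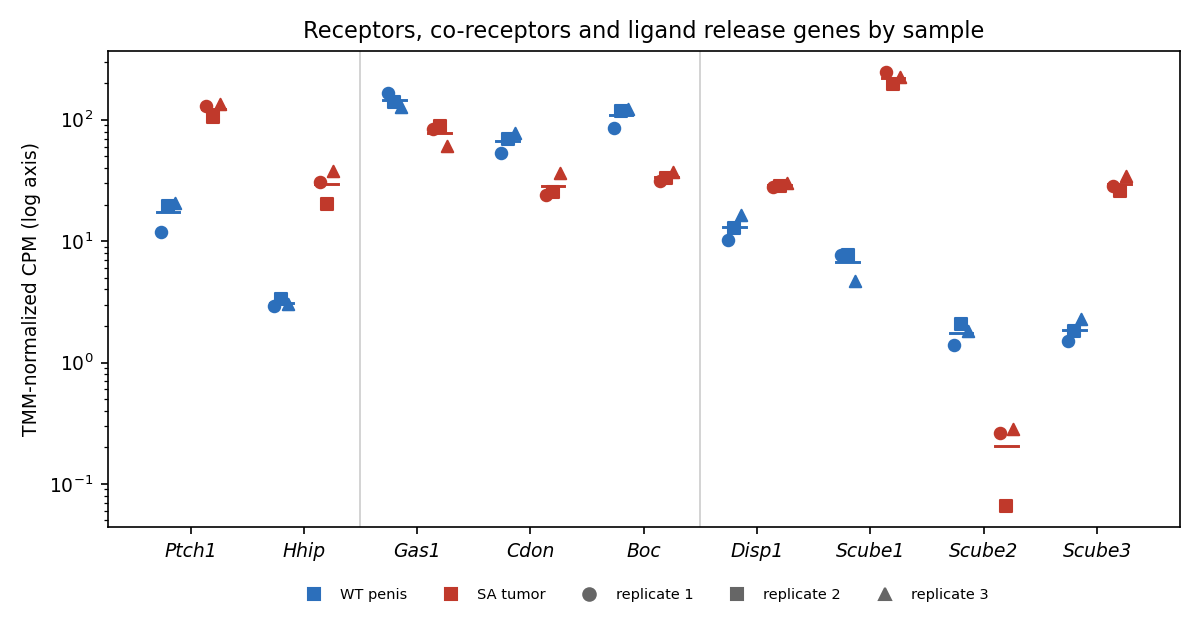
TMM-normalized CPM (log axis) of Ptch1 and Hhip, of the co-receptors Gas1, Cdon and Boc, and of the release genes Disp1, Scube1, Scube2 and Scube3 in 3 WT penises (blue) and 3 SA tumors (red), with lines for group means. Ptch1 and Hhip lie higher in SA tumors, the co-receptors lie lower, and Scube2 moves against Scube1 and Scube3.

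In the list for the machinery between Smo and Gli, 23 genes were tested and Mosmo was not analysed here. Of the 23 genes, 2 rose and 4 fell, against 20.1% and 17.5% of all genes, none of them past the fold-change threshold, and the median log2FC was -0.01. Sufu, which holds the Gli factors in the cytoplasm, was at 46.7, 46.5 and 45.1 CPM in SA tumors and at 36.6, 37.4 and 37.9 CPM in WT penises, and its log2FC of 0.31 ± 0.0890 (SE, adjusted p = 0.0194) did not pass the test. The genes that rose were Stk36, the mouse counterpart of the fly kinase Fused, by 1.21, and Dlg5, a partner of Smo and Kif7, by 0.73 on the log2 scale. Among the genes that fell were Adrbk1, a kinase of Smo, with a log2FC of -0.82, and Ulk3, a kinase of the Gli factors, with -0.51. The number that fell was 1 without SA tumor 1 or WT penis 2, 2 without SA tumor 2, WT penis 1 or WT penis 3, and 1 with library totals as the only scaling, where 6 rose. Of 20 genes of the primary cilium, 3 rose and 4 fell, shares near those of all genes, with a median of -0.18. Ttbk2, a kinase needed to start the cilium, rose 3.00-fold, Tulp3 and the motor gene Dync2h1 rose 1.86-fold and 1.59-fold, and the ciliary GTPase gene Arl13b was 1.90-fold lower. The number of cilium genes that fell was 0 with library totals as the only scaling. It was 2 without SA tumor 2, WT penis 2 or WT penis 3, and 6 without SA tumor 3.

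Genes known as Hedgehog targets in at least 1 tissue were followed as a list of 30, of which 26 were tested. This list, too, was written with earlier results of these data known. In SA tumors 13 rose and 4 fell, against 20.1% and 17.5% of all genes, and 9 of those that rose and 1 of those that fell were past both thresholds. The median log2FC was 0.84. Among the genes with the largest increases were Foxa2, Foxl1 and Pax9. Foxa2, a target in the floor plate of the neural tube, was at 53.4, 54.9 and 30.6 CPM in SA tumors, with counts of 2, 2 and 0 in the WT penises. Foxl1, a target in gut mesenchyme, was at 0.520, 3.44 and 2.78 CPM in SA tumors and had 2, 2 and 1 counts in WT penises. Pax9, a target in the sclerotome, was at 0.706, 1.32 and 0.715 CPM with 0, 0 and 2 counts in WT penises. The 4 targets that fell were Ccnd2, Jag2, Osr2 and Sox9, with log2FCs of -1.64, -0.79, -2.30 and -0.97, and they are named after their values were seen. Many genes of this list also answer to other pathways.

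**Figure D4:**
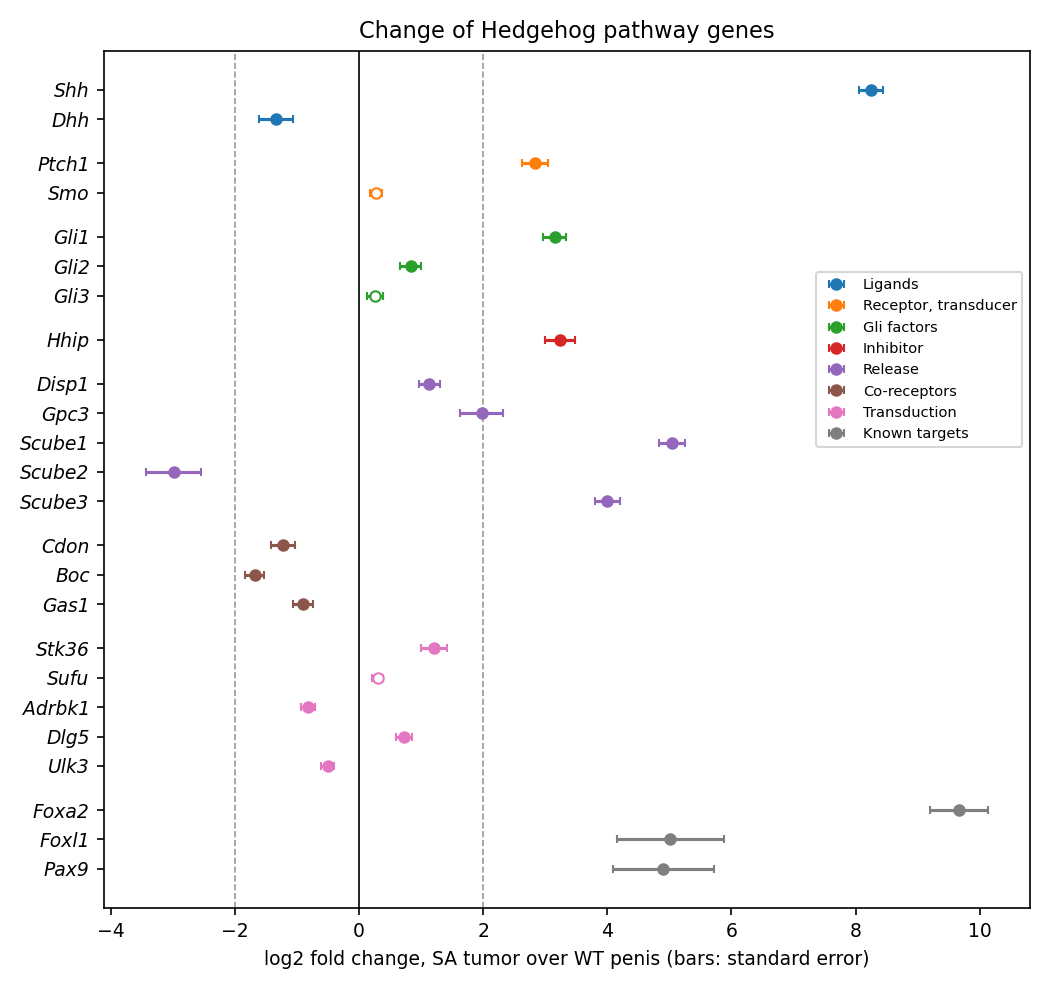
Log2 fold change of SA tumors over WT penises, with standard errors as bars, for the 8 tested members and for named genes of the wider pathway; filled points passed an adjusted p of 0.01, open points did not, and dashed lines mark the fold-change threshold. Shh and Foxa2 lie farthest to the right, Smo, Gli3 and Sufu lie near 0, and Dhh, Scube2, Cdon, Boc, Gas1, Adrbk1 and Ulk3 lie to the left.

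Markers of other cell types were set beside these results, against the 20.1% of all genes that rose and the 17.5% that fell. The 8 basal epithelial markers summed to 9875 to 12224 CPM in SA tumors and 21093 to 23122 CPM in WT penises, and 5 of them fell and 1 rose. Epithelial markers behaved alike, with 6 of 8 lower, 1 higher and sums of 7502 to 8043 against 16485 to 17149 CPM. In TPM, the ratio of Shh to Krt14 was at most 3.04e-05 in WT penises and at least 0.00863 in SA tumors.

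Fibroblasts are a common responder to the ligand, and their 14 markers differed between the tumors. They summed to 2428 CPM in the lowest SA tumor and 6965 CPM in the highest, a 2.87-fold range, against 7904 to 8332 CPM in WT penises. Among the tumors Gli1 varied 1.48-fold and Ptch1 1.28-fold, and a link of either gene to the fibroblast sum was not tested. Of the fibroblast markers 2 rose, Thy1 and Fbln1, and 2 fell, Dcn and Pi16, against 20.1% and 17.5% of all genes. Their median log2FC was -0.35. Without SA tumor 1, 5 rose and 5 fell, and without SA tumor 2 or any 1 of the WT samples 1 rose and at most 1 fell. All 8 smooth muscle markers fell, with a median of -4.60. Endothelial markers summed to 188 to 322 CPM in SA tumors and 367 to 444 CPM in WT penises, and leukocyte markers to 132 to 382 and 88.6 to 138 CPM. Of the 9 leukocyte markers 1 rose, and 9 did so without SA tumor 1, 2 without SA tumor 3 and none in the other 4 such fits. Of the 7 skeletal muscle markers, 1 of 4 tested fell, and of the 6 adipocyte markers only Fabp4 had enough counts to be tested. Fabp4 rose from 3.64 ± 0.740 to 126 ± 5.27 CPM (SD, n = 3 each), while Adipoq, which defines adipocytes, had no count in WT penises and was at or below 0.0662 CPM in SA tumors. The part of the cell makeup in the changes of the 9 genes was not tested.

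**Figure D5:**
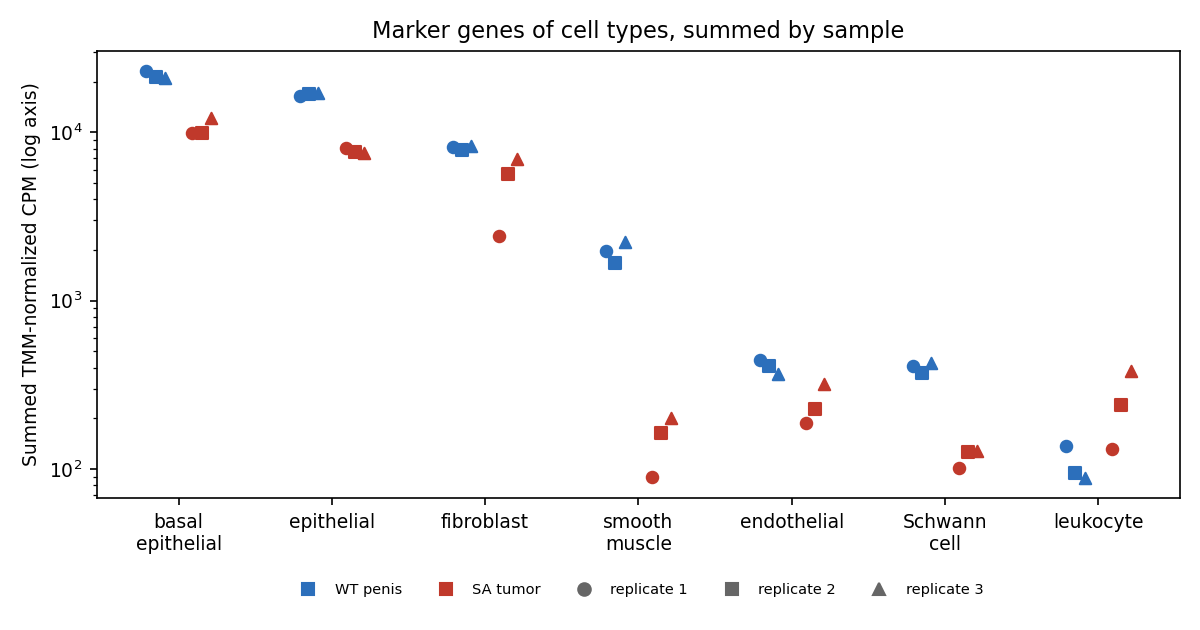
Summed TMM-normalized CPM (log axis) of the marker genes of 7 cell types in 3 WT penises (blue) and 3 SA tumors (red). The sums of the epithelial, fibroblast, smooth muscle, endothelial and Schwann cell lists are lower in each SA tumor than in each WT penis. The fibroblast and leukocyte sums spread widely among the tumors.

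The genes with the pattern closest to Shh and to Gli1 were taken by the root mean square difference of centred log2 CPM over the 6 samples, a description that mostly follows the size of the change between the groups. For Shh these were Cdh22, 4921525O09Rik at a difference of 0.210 and Fgf4, a growth factor gene, at 0.223 on the log2 scale. Cdh22, a cadherin gene, had no count in any WT sample, so that its values there are set by the prior count of 2, and its likeness to Shh is not read. The prior count also weighs on the low WT values of 4921525O09Rik, at 0.181, 0.100 and 0.0911 CPM. It weighs less on those of Fgf4 and of Shh itself, which were also low. Fgf4 was at 101, 55.3 and 68.9 CPM in SA tumors and at 0.362, 0.200 and 0.228 CPM in WT penises. For Gli1 these were Cd83 at 0.126, Reep6 at 0.133 and Camkv at 0.139. Cd83, an immune cell surface gene, was at 18.0, 17.9 and 13.0 CPM in SA tumors and at 1.27, 1.70 and 2.14 CPM in WT penises.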

How the data were processed

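RNA-seq of 3 SA penile tumors and 3 WT penile epithelium samples was used. TopHat was the aligner of the authors, with mm10 as the genome, and HTSeq their counter; the versions are not given in the sources used here. Deposited for each of 33068 RefSeq transcripts are a raw count, without normalization, and FPKM and TPM values that the authors derived from it. FPKM was not used. TPM, which is not TMM-scaled, was used only to compare levels between genes and for sums, shares and ratios of genes within samples. Where a symbol had several transcripts, the most highly counted was taken, and each of the 9 members had 1. The replicate numbers were not treated as pairs.

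The analysis used edgeR 4.0.16 in R 4.3.3. The function filterByExpr (minimum 10 counts at the median library size, equal to 0.380 CPM, in 3 samples, and 15 counts in total) retained 16336 genes. After TMM scaling, a robust quasi-likelihood model was fitted and its F-test gave the p-values, adjusted by the Benjamini-Hochberg method. Thresholds followed the study, with adjusted p under 0.01 and, where stated, a log2FC of 2 or more in either direction. SE is the size of the log2FC over the square root of F. DESeq2, the tool of the authors, was run in version 1.42.0 as an alternative. CPM values are TMM-scaled, and log values carry a prior count of 2. Floors cover counting error only.

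The 9 members and all gene lists were chosen with earlier results of these data known. Named genes are the members, Smad4, Apc, Sufu, Gas1, Cdon and Boc, and up to 4 genes of each list with the largest change among those past the thresholds. Disp1, Hhat, Lrp2, Krt14, Adipoq and the genes said to be named after their values were seen lie outside this rule, as do genes overlapping a member. A few genes named by it are left out. Positions and promoter sequences are from RefSeq (GRCm38.p6), overlaps from GENCODE M21, and mm10 is the same assembly.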

Additional observations from a re-analysis of the deposited data

How the results depend on the processing

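Each of the 8 tested members kept its direction under every alternative that could test it. Shh, Ptch1, Gli1 and Hhip also stayed past an adjusted p of 0.01 under each of them. Leaving out each sample in turn gave log2FCs of 2.61 to 2.95 for Ptch1, 3.00 to 3.29 for Gli1, 3.03 to 3.45 for Hhip, 0.66 to 0.98 for Gli2 and -1.41 to -1.21 for Dhh. The number of members that rose was then 4 to 5 and the number that fell 0 to 1. With library totals as the only scaling, Dhh was at -1.05 (adjusted p = 0.0104), which left 0 members that fell, Smo rose by 0.56 (adjusted p = 0.00159), and 5248 genes rose and 1806 fell. With glmTreat of edgeR, which tests for a change beyond 4-fold, 749 genes rose and 180 fell, Gli2 (0.83) and Dhh (-1.34) were not called, and 0 members fell. With the replicate number as a block, Dhh was at -1.36 (adjusted p = 0.0102), 0 members fell and no other member changed its call. The deviations of same-numbered samples had correlations of -0.135, -0.105 and 0.0238 across genes, so that the numbers were not read as pairs. DESeq2, scaling by RLE or the upper quartile, both other filters and the sum of transcript rows changed no call of a member. List counts moved more. DESeq2 called 7 leukocyte markers higher against 1, 5 endothelial markers lower against 3, and 4 fibroblast markers higher and 4 lower against 2 and 2. With library totals only, 6 transduction genes rose against 2, 1 fell against 4, 0 cilium genes fell against 4, 4 leukocyte markers rose and 1 endothelial marker fell. With upper quartile scaling 4 transduction genes rose and 2 fell, and with the replicate block 1 fell. A minimum mean of 50 counts left 4 Schwann cell markers lower against 7, and removed Scube2. The co-receptors that fell numbered 3 in all of these except glmTreat, where 0 fell. The depth limits Ihh, whose counts in the WT penises were 1, 4 and 3.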

Other observations

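Genes of the hair placode and its mesenchymal partner, the dermal condensate, were followed because Shh acts between them in skin. Both lists were written with earlier results of these data known, so that their counts are a description only. Of 14 placode and bud genes, all tested, 12 rose and none fell in edgeR's test, with a median log2FC of 3.93 against 0.03 over all genes, of which 20.1% rose. Dkk4, a secreted Wnt inhibitor of the placode, was at 291, 166 and 165 CPM in SA tumors and at 0.407, 0.300 and 0.638 CPM in WT penises. Lef1, a partner of β-catenin on DNA, was at 78.7, 57.6 and 51.1 CPM against 0.859, 0.467 and 0.547 CPM. Fgf20 and Foxi3 were at 27.5 to 47.8 and 11.0 to 20.8 CPM in SA tumors, and no WT library held more than 3 counts of either. SA tumor 1, which had the highest Shh, was also the highest for these 4 genes. Gli1 was highest in SA tumor 2, and Ptch1 and Hhip in SA tumor 3. A link of Shh to the placode genes among the tumors was not tested. Several genes of this list are also direct targets of Wnt signaling.

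Of 13 genes of the dermal condensate and papilla, 7 rose and none fell, against 20.1% and 17.5% of all genes. Their median log2FC was 1.81. Wif1, a secreted Wnt inhibitor, was at 820, 726 and 680 CPM in SA tumors and at 41.8, 31.4 and 33.1 CPM in WT penises. Bmp4 was at 279, 222 and 198 CPM against 47.6, 55.1 and 49.4 CPM. Sox2, which is also made by epithelial stem cells and carcinomas, was at 102, 109.8 and 53.6 CPM against 0.452, 0.467 and 0.820 CPM. Cntn4, an adhesion gene, was at 1.90, 3.94 and 3.48 CPM, with 1 count in all WT libraries together. Rspo3, Corin and Alpl, other genes of the papilla, had log2FCs of 0.46, 0.41 and 0.41 and did not pass the test; they are named after their values were seen.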
